A study of Tigriopus californicus with 4 samples.

Results

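The expression of genes was compared between 2 populations of the intertidal copepod *Tigriopus californicus*, one from San Diego (SD) and the other from Santa Cruz (SC), after the same acute heat stress. The assemblies of the populations have different contigs, so the comparison was made through product names: a name entered when it was on exactly 1 contig in SD and exactly 1 contig in SC, ignoring case. Contigs named NA and names with a bracketed species were left out, and the 13 protein-coding mtDNA genes were matched by gene. This gave 4028 matched pairs, 4015 product names and 13 mtDNA genes, out of 20278 SD contigs and 20931 SC contigs. Of these, 11452 SD contigs and 11784 SC contigs carried a usable name, and 7033 and 7058 names were on exactly 1 contig. Genes with several copies are therefore largely missing, because their name is on more than 1 contig.

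Both heat stress samples were pools of copepods of all life stages, from laboratory stocks kept at 20 °C. They were held at 35 °C for 1 h, given 1 h at 20 °C to recover, and used for a single mRNA library each. The matching control pools stayed at 20 °C, and are used here for the SD to SC ratio without heat stress and for the level after heat stress relative to the control. The heat stress libraries carried different barcodes and were run in the same lane, with the controls in the adjacent lane. With 1 library per population and treatment there is no replicate, so no test was made. Population, stock, pool and library preparation cannot be told apart, and in a pool of whole animals fewer cells of a type and less RNA per cell cannot be told apart either.

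Expression is given as RPKM, the reads of a contig scaled to its length and to the mapped reads of the library, as deposited. The SD to SC ratio of a name is its RPKM in SD divided by its RPKM in SC, relative to the median of this ratio over the 4028 pairs, which was 0.985 after heat stress (95% binomial interval of the median 0.970 to 0.999) and 1.17 in the controls. A difference is counted when the ratio was at least 4-fold from the median. The 95% interval beside a ratio is the exact interval of the split of the reads between the libraries. The reads were recovered from the RPKM values as the smallest whole numbers that fit, and the intervals cover counting error only. All 4028 pairs were above 0 in both heat stress libraries, with a median of 200 reads in SD and 165 in SC. Under 10 reads were behind 52 of the SD values and 66 of the SC values.

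Heat denatures proteins, and animals respond within minutes to hours by transcribing chaperones: small heat shock proteins hold unfolded proteins in solution, hsp70 with its DnaJ (hsp40) partners and hsp90 refold them, and the ubiquitin and proteasome system removes those that are lost. *T. californicus* lives in high-shore pools, and its southern populations, of which SD is one, survive higher temperatures than northern ones such as SC. The mitochondrial genome of this species differs strongly between populations, and most subunits of the respiratory chain are encoded in the nucleus and must work with those encoded in mtDNA.

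Most names had similar expression in the heat-stressed animals of both populations. The ratio was within 2-fold of the median for 89.1% of the pairs and within 1.5-fold for 71.3%. At least 4-fold higher expression was found in SD for 60 names (1.49% of the 4028 pairs) and in SC for 40 names (0.993%), 2.48% of the pairs in all. Past 2-fold were 243 names in SD (6.03%) and 195 in SC (4.84%), and past 8-fold 16 (0.397%) and 14 (0.348%). The whole counting interval lay past 2-fold for 57 of the 60 names and for 39 of the 40. The names nearest to the 4-fold limit in SD were "dna methyltransferase 1 associated protein 1" at 4.05-fold and "lectin 4 c-type lectin" at 3.98-fold, and in SC "myelin p2 protein" at 4.07-fold and "probable pyridoxine biosynthesis snzerr" at 3.97-fold.

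**Figure D1:**
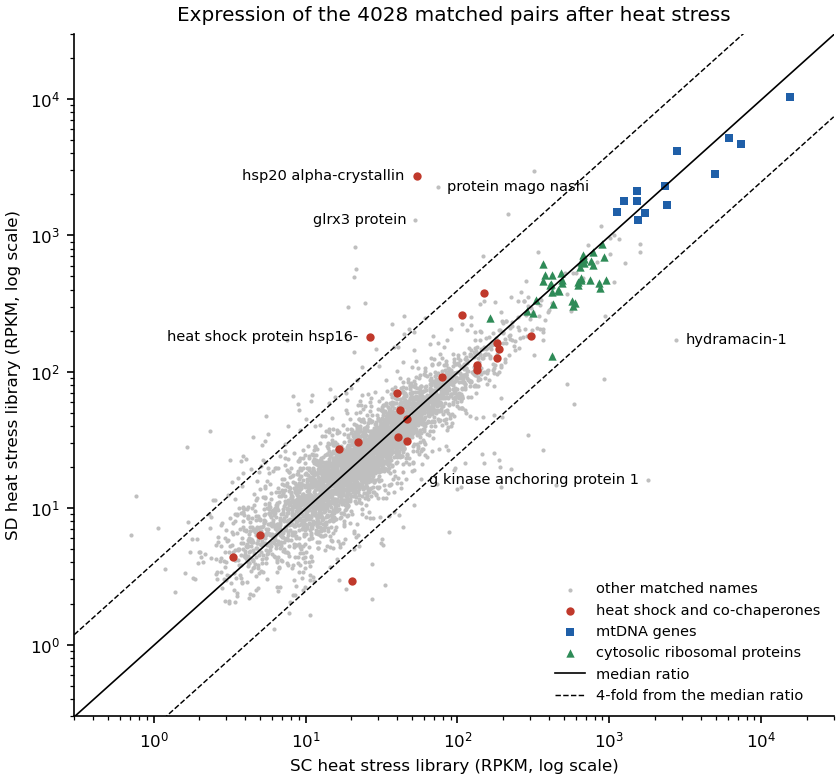
RPKM of each of the 4028 matched pairs in the SC heat stress library (horizontal) and the SD heat stress library (vertical), both on log scales, with heat shock, mtDNA and cytosolic ribosomal genes in colour. The solid line is the median ratio and the dashed lines are 4-fold from it: 60 names lie above the upper line and 40 below the lower one.

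The name with the highest ratio in SD was "hsp20 alpha-crystallin", a small heat shock protein (SD_Contig70407 and SCN_Contig49917). Its expression was 2728 RPKM in the SD heat stress library and 53.9 RPKM in SC, a 51.4-fold higher value in SD (33.3 to 84.2). In the controls it had 73.4 RPKM in SD and 12.3 in SC, so that the level after heat stress was 37.2 times that of the control in SD and 4.39 times in SC. The SC values rested on 20 reads after heat stress and 3 in the control, and the recovered contig lengths were 574 bp in SD and 75 bp in SC. The paper lists an hsp20 gene with orthologs in both populations, and another in SC for which it found no SD ortholog. The rise of the SD contig was near the paper's SD value for the former. That of the SC contig was nearer to the paper's value for the SC-only gene than to its SC value for the former. Whether these contigs are the same gene was not tested. The name "glrx3 protein", a glutaredoxin of the monothiol type that carries iron-sulphur clusters, had 1300 RPKM in SD and 52.9 in SC, 24.96-fold higher in SD (21.6 to 29.0). Its SC value was close to that of the SC control, 51.5 RPKM, whereas the SD control had 156. The recovered contig lengths of glrx3 were 2879 bp in SD and 703 bp in SC.

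Other names far higher in SD after heat stress were as far apart in the controls. "Protein mago nashi", a core part of the exon junction complex, had 2247 RPKM in SD and 74.6 in SC after heat stress, 30.6-fold higher in SD (27.1 to 34.7), and 4608 against 93.6 RPKM in the controls. "Protein lsm14 homolog a-like", an mRNA-binding protein of P-bodies, was 39.1-fold higher in SD (22.4 to 75.7), with 819 RPKM against 21.3, the latter from 12 reads. "Merlin moesin ezrin radixin", which links actin to the cell membrane, was 26.8-fold higher (24.2 to 29.7), with 565 against 21.4 RPKM. In the controls the ratios of these names were 42.2, 35.3 and 32.6 in favour of SD. Their expression in SD was thus high with and without heat stress. The recovered contig lengths of mago nashi were 223 bp in SD and 764 bp in SC, and those of lsm14 2574 and 114 bp. Whether such pairs are the same gene was not tested.

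The same holds for most of the remaining names that ranked highest in SD. "Nucleoside diphosphate kinase a 1", which balances nucleotide pools, was 24.2-fold higher (18.7 to 31.8), with 496 RPKM in SD and 20.8 in SC. The DNA damage checkpoint protein rad17 was 23.0-fold higher (16.7 to 32.7), from 171 and 7.56 RPKM. "Mitochondrial 39s ribosomal protein l50" was 15.8-fold higher, "glutaminase 2" 16.9-fold, "cytoplasmic 2-like" 13.3-fold, the actin entry act4_artsx 9.36-fold and "thread matrix protein 1b" 6.82-fold. All 7 were higher in SD in the controls too, by 6.16-fold for glutaminase 2, which turns glutamine into glutamate, to 85.6-fold for rad17. The name rad17 rested on 37 reads in SC after heat stress, and glutaminase 2 on 14. The recovered contig lengths of glutaminase 2 were 148 bp in SD and 1695 bp in SC, and those of rad17 3496 and 989 bp.

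In SC the highest ratio belonged to "g kinase anchoring protein 1", a scaffold for cyclic GMP-dependent kinase. It had 16.2 RPKM in the SD heat stress library and 1791 RPKM in SC, 109-fold higher in SC (94.97 to 125), after 20.0 and 2782 RPKM in the controls. Hydramacin-1, an antimicrobial peptide first known from the freshwater polyp *Hydra*, had 170 RPKM in SD and 2746 in SC, 15.9-fold higher in SC (14.6 to 17.4). A polyubiquitin name (ubiqp_strpu), a precursor that is cut into single ubiquitins, had 26.7 RPKM in SD and 364 in SC, 13.4-fold higher in SC (9.60 to 19.3). Its level after heat stress was 2.21 times that of the control in SD and 2.79 times in SC, and the ratio at 20 °C was 12.6-fold in favour of SC. The name rested on 38 SD reads after heat stress, with recovered contig lengths of 255 bp in SD and 193 bp in SC.

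The other names that ranked highest in SC had enzymes, receptors and transporters among them. "Dihydrolipoamide s-acetyltransferase", the E2 part of the pyruvate dehydrogenase complex, had 87.9 RPKM in SD and 918 in SC, 10.3-fold higher in SC (9.59 to 11.05). "Cathepsin l precursor", a lysosomal and digestive protease, had 57.6 and 582 RPKM, a 9.96-fold difference (7.18 to 14.2). It rested on 36 SD reads, with recovered contig lengths of 112 bp in SD and 1379 bp in SC. The names of ligand-gated channels, "gaba receptor" and the NMDA receptor epsilon subunit, were 13.1-fold and 12.4-fold higher in SC, but at 6.66 and 2.16 RPKM in SD each rested on 20 SD reads. "Sodium chloride dependent amino acid transporter" was 13.4-fold higher in SC and rested on 9 SD reads, with recovered contig lengths of 113 bp in SD and 3063 bp in SC. "Alcohol dehydrogenase (nadp+) b" was 11.4-fold higher, "probable mitochondrial 39s ribosomal protein l49" 9.36-fold, the double-stranded RNA protein "tar rna binding protein" 8.33-fold and the Golgi membrane protein "protein yipf6" 8.21-fold. All 12 names ranked highest in SC were higher in SC in the controls as well.

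Over all names at least 4-fold apart after heat stress, most were also apart at 20 °C. In the controls 158 names were at least 4-fold higher in SD (3.93% of the 4016 pairs above 0 in both controls) and 129 in SC (3.21%). Of the 60 names higher in SD after heat stress, 36 were at least 4-fold higher in SD in the controls, which is 22.8% of the 158. Of the 40 names higher in SC, 32 were at least 4-fold higher in SC in the controls, which is 24.8% of the 129. The controls were separate animals and libraries, but were mapped to the same contigs under the same names, so that a name that joins different genes of a family would be far apart in both. The recovered contig lengths differed by 1.5 times or more for 61.7% of the 60 names, for 57.5% of the 40 names and for 42.7% of the other pairs. These lengths are the smallest that fit the values, so a difference between them need not be one between the contigs. They were equal for 9 of the 13 mtDNA genes, and for nad2 they were 323 bp in SD and 969 bp in SC.

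**Figure D2:**
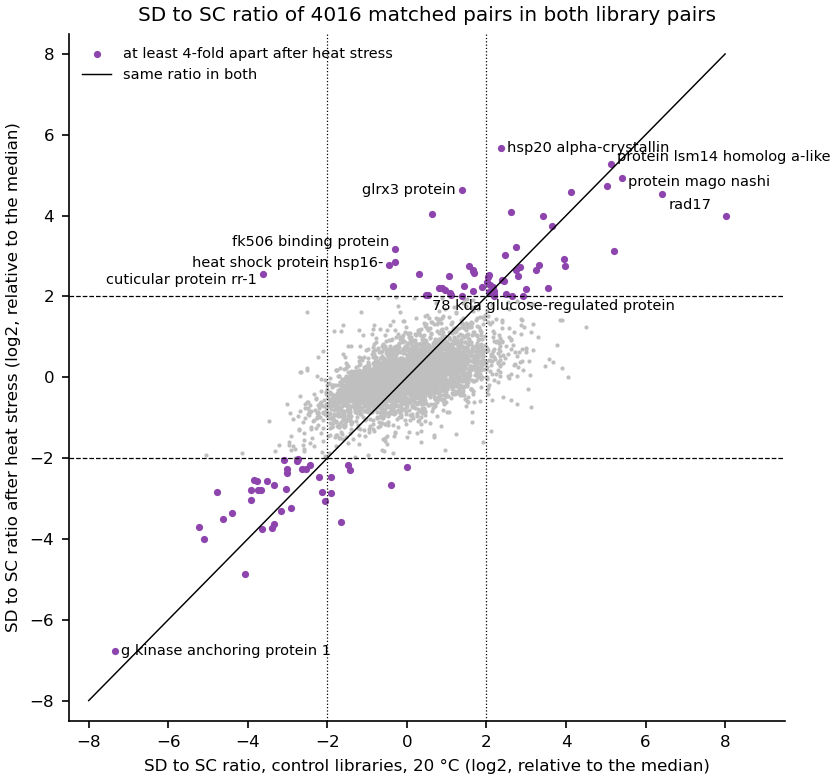
SD to SC ratio of the 4016 pairs above 0 in all libraries, in the controls (horizontal) and after heat stress (vertical), on log2 scales relative to the median. Purple points were at least 4-fold apart after heat stress: most lie beyond the dotted lines of the controls on the same side, while hsp16, fk506 binding protein and cuticular protein rr-1 were not higher in SD at 20 °C.

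There were 14 names at least 4-fold apart after heat stress but under 2-fold the same way in the controls, 12 higher in SD and 2 in SC. They were picked out after their values were seen. In 7 of them the SD level after heat stress was 2.96 to 25.5 times that of its control. "Heat shock protein hsp16-", a small heat shock protein, had 179 RPKM in SD and 26.5 in SC after heat stress, and 18.9 and 21.95 RPKM in the controls. It was 6.85-fold higher in SD after heat stress (5.71 to 8.26) and 1.36-fold higher in SC at 20 °C. "Fk506 binding protein", a peptidyl-prolyl isomerase that assists folding, had 22.6 and 3.17 RPKM after heat stress and 3.24 and 3.40 in the controls, 7.25-fold higher in SD (4.37 to 12.8). "78 kda glucose-regulated protein precursor", the hsp70 of the endoplasmic reticulum, had 247 RPKM in SD and 60.7 in SC, 4.13-fold higher in SD (3.81 to 4.49), after 41.5 and 25.5 RPKM in the controls.

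The further names of this kind in SD were "cuticular protein rr-1 family (agap009876-pa)", "rab family gtpase", "peptidase m23b" and "caspase long dronc-like", an initiator of programmed cell death. The Rab name, a switch of vesicle traffic, had 15.5 and 3.30 RPKM after heat stress and 1.42 and 1.54 in the controls. Peptidase m23b had 31.3 and 5.40 RPKM after heat stress, 5.88-fold higher in SD, and the caspase 12.6 and 3.10 RPKM, 4.12-fold higher in SD (1.94 to 8.86). The SD controls of these 2 names rested on 2 reads each, and the interval of the caspase's level relative to its control, 0.704 to 26.5, included no change. In the remaining 5 names, "discoidin domain", "oxytocin receptor", "glycosyl hydrolase family 88", "spliceosome associated" and "phytanoyl- dioxygenase domain-containing protein 1", the SD level was 0.837 to 1.46 times its control and the SC level 0.110 to 0.564 times. These rested on 1 to 30 SC reads after heat stress. In SC, "neurobeachin-like protein 1" had 10.7 RPKM against 1.65 in SD and "prolyl-4-hydroxylase-alpha efb", which hydroxylates collagen, 6.19 against 1.31.

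The heat shock proteins and co-chaperones had 21 matched names, out of 63 SD contigs and 64 SC contigs with such names. The others had a name on several contigs or in a single population. Summed over all contigs with such names, SD had 5157 RPKM in the control and 20368 after heat stress. SC had 8580 and 12550 RPKM. Of the matched names, 2 were at least 4-fold higher in SD and 1 in SC, 4 and 1 were past 2-fold, and 16 were within 2-fold. Over all pairs 1.49% and 0.993% were past 4-fold, and 6.03% and 4.84% past 2-fold. The median ratio of the list on the log2 scale was 0.23, against 0 by definition over all pairs, and -0.40 in the controls. Among the 13 names whose recovered contig lengths differed by less than 1.5 times it was -0.24, so that the sign of the list's median depended on which names entered.

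The names of the list that were higher in SD belonged mainly to the small heat shock proteins and to the partners of hsp70 and hsp90. Beside hsp20 and hsp16, "heat shock protein 40" had 375 RPKM in SD and 149 in SC, 2.56-fold higher in SD (2.43 to 2.71), after 205 and 114 RPKM in the controls. "Hsp70 hsp90 organizing protein homolog", which hands client proteins from hsp70 to hsp90, had 260 and 108 RPKM, 2.45-fold higher in SD (2.26 to 2.66). In the controls it had been 3.06-fold higher in SC, at 82.1 and 216 RPKM. Whether its contigs are the same gene in both populations was not tested. The kinase-specific "hsp90 co-chaperone cdc37" was 1.77-fold higher in SD, with 69.4 and 39.7 RPKM, "hsp70 binding protein" 1.67-fold, with 27.3 and 16.6 RPKM, and "small heat shock protein" had 30.5 and 22.1 RPKM. The interval of these 5 names lay above 1.

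The 3 names of the list that are hsp70 proteins themselves were within 2-fold, unlike the hsp70 of the endoplasmic reticulum above, whose name holds no heat shock word and is not in the list. "Heat shock 70 kda protein" had 147 RPKM in SD and 189 in SC, 1.26-fold higher in SC (1.19 to 1.34), and "heat shock 70 kda protein 14" 33.4 and 40.9 RPKM, 1.21-fold higher in SC. "Heat shock cognate 70 protein", the form made without stress, had 162 and 181 RPKM, 1.103-fold higher in SC (1.02 to 1.19), and 223 and 109 RPKM in the controls. The level of these 3 names after heat stress was 0.724 to 0.967 times the control in SD and 1.151 to 1.69 times in SC. The paper reports other hsp70 genes induced in both populations, with larger rises in SD. None of these 3 names rose in SD, so the strongly induced hsp70 genes are not covered by them.

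The chaperonins, which fold proteins inside a closed chamber, were higher in SC within 2-fold. The mitochondrial "10 kda heat shock" had 184 RPKM in SD and 303 in SC, 1.62-fold higher in SC (1.48 to 1.78), "t-complex protein 1 subunit gamma" 126 and 181 RPKM, its delta subunit 112 and 135 RPKM and "chaperonin subunit 6a zeta" 102 and 134 RPKM. In the controls these ratios were 4.46, 3.25, 1.55 and 2.01 in favour of SC. The DnaJ names lay on both sides: "dna-j hsp40" was 1.46-fold higher in SC, "chaperone protein dnaj 16" had 45.0 and 46.4 RPKM, and the interval of "dnaj homolog subfamily c member 27" was 0.746 to 2.25. The ratios in favour of SD of "stip1 homology and u box-containing", a ubiquitin ligase that works with chaperones, and "hsc70-interacting protein" were 1.27 and 1.17. The name past 4-fold in SC, "chaperone protein", names no family and had 2.91 RPKM in SD and 20.3 in SC. "Heat shock protein sti1 homolog" rested on 15 and 2 reads and its interval ran from 0.312 to 12.1.

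**Figure D3:**
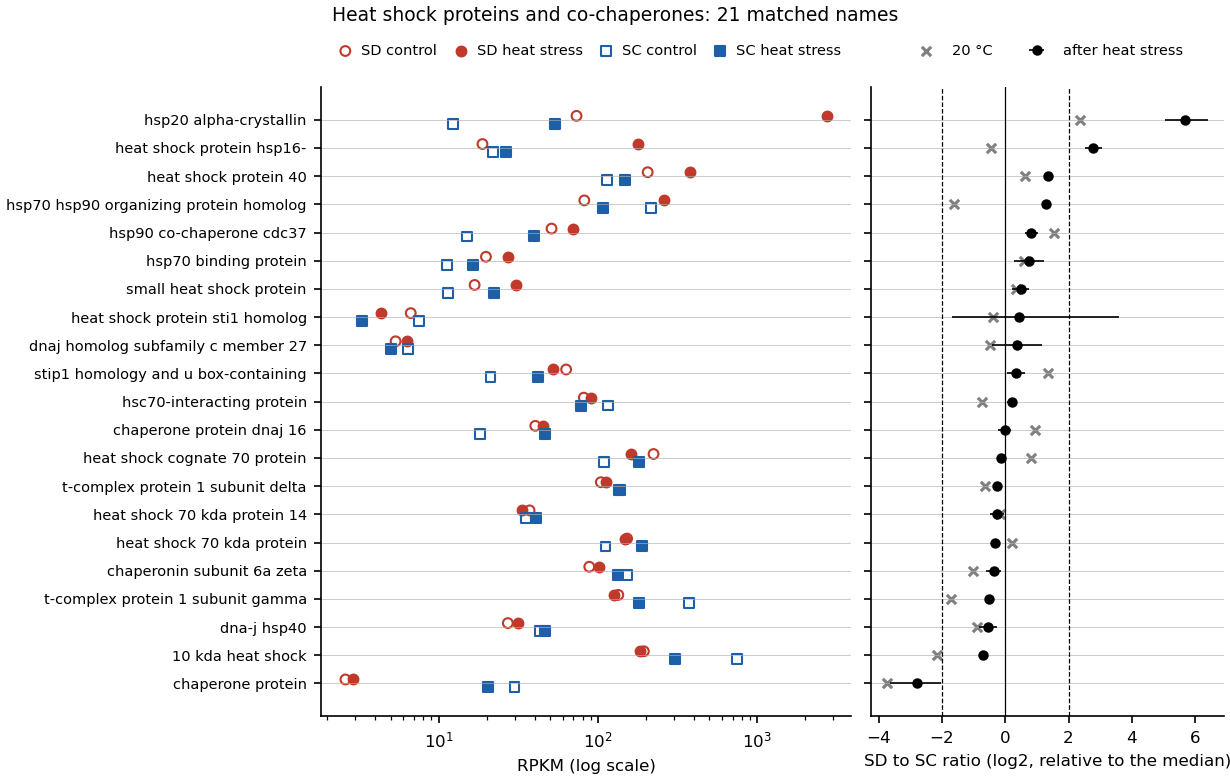
The 21 matched heat shock and co-chaperone names, with the RPKM in each of the 4 libraries on a log scale (left) and the SD to SC ratio on the log2 scale relative to the median (right, bars are exact 95% counting intervals, dashed lines 4-fold). The SD heat stress value stands far to the right of the other libraries only for hsp20 and hsp16.

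For 39 names the SD to SC ratio was at least 4-fold higher after heat stress than in the controls (0.971% of the 4016 pairs), and for 73 at least 4-fold lower (1.82%), 2.79% of the pairs in all. Without scaling to the median the counts were 29 and 116, and with scaling within 10 groups of similar contig length, an alternative added after the data were seen, 29 and 88. With 1 RPKM added to each library they were 30 and 25, and with at least 10 reads in all 4 libraries 13 and 16, so that the excess toward SC depended on names with low values. The whole counting interval lay past 2-fold for 14 of the 39 names and 20 of the 73. The largest moves toward SD, ranked by the counting interval, were those of "cuticular protein rr-1 family (agap009876-pa)", a chitin-binding protein of the exoskeleton, which moved 71.6-fold (18.2 to 391), and of glrx3, which moved 9.59-fold (7.46 to 12.3). The cuticular protein had 2.05 RPKM in the SD control and 52.2 after heat stress, and 21.5 and 9.06 RPKM in SC. These values rested on 3 reads in the SD control and 16 in SC after heat stress. Hsp16 moved 9.29-fold (5.50 to 16.1) and the hsp70 hsp90 organizing protein 7.50-fold (6.41 to 8.79).

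"Sequestosome 1-like", the receptor that brings ubiquitin-tagged proteins to autophagy, had 332 RPKM in SD and 149 in SC after heat stress and 44.1 and 87.7 RPKM in the controls, a 5.24-fold move (4.07 to 6.82). "Zinc transporter zip13" had 70.0 and 18.3 RPKM after heat stress and 13.9 and 19.5 RPKM in the controls, a 6.37-fold move (3.50 to 12.04). Of the 39 names, 26 had at least 2-fold more RPKM than the control in SD and 16 at least 2-fold less in SC. In 25 of them a library had under 10 reads.

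Most names that moved toward SC had low values in the SC control. Of the 73 names, 71 had at least 2-fold more RPKM in SC after heat stress than in the SC control, 56 had under 10 reads in the SC control, and 57 were within 2-fold of the median after heat stress. "Dna methyltransferase 1c", an enzyme of DNA methylation, had 1.36 RPKM in the SC control against 9.34 to 14.98 RPKM in the other 3 libraries. "Telomerase-binding protein est1a", a factor of nonsense-mediated decay, had 2.57 RPKM there against 17.1 to 20.6. The move was 10.8-fold (3.78 to 37.5) and 5.81-fold (3.02 to 12.2). "Protein-associating with the carboxyl-terminal domain of", "b-cell translocation protein", "mgc140593 protein" and "protein phosphatase 1 binding" moved 12.7-fold, 3.78-fold, 4.95-fold and 3.801-fold toward SC.

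The SD and SC libraries were more alike after heat stress than at 20 °C. The standard deviation of the log2 ratio across names was 0.74 after heat stress and 1.16 in the controls, and 73.3% of the 4016 pairs were closer to the median after heat stress. Among the 2122 names with at least 50 reads in each of the 4 libraries the values were 0.61 and 0.96. In the controls the median log2 ratio rose from -0.45 in the shortest of 4 equal groups of contig length to 0.46 in the longest, whereas after heat stress it went from -0.08 to 0.05. The ratio also correlated across names with expression level, with Spearman's rho of -0.40 in the controls and -0.08 after heat stress. Names with high expression thus tended toward SC in the controls, and control medians of lists with high expression share this limit. The heat stress to control ratio across names had a standard deviation on the log2 scale of 0.45 in SD and 0.84 in SC, and correlated with contig length across names in SC (Spearman's rho 0.25) more than in SD (0.04), as a description over names of the same libraries. The part of the SC control library in this difference was not tested.

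The mtDNA genes, which encode 13 subunits of the respiratory chain and ATP synthase, had higher expression than most nuclear genes, from 1291 to 10296 RPKM in SD and 1128 to 15464 RPKM in SC after heat stress. None differed by 2-fold, and of all pairs 89.1% were within 2-fold. Relative to the median 6 mtDNA genes were higher in SD and 7 in SC, and their median log2 ratio was -0.22. Complex I subunits were among the highest ratios in SD. The gene nad2 had 4177 RPKM in SD and 2798 in SC, 1.52-fold higher in SD (1.47 to 1.56), nad1 1787 and 1258 RPKM, nd4L 2126 and 1511 RPKM, nad3 1480 and 1128 RPKM and nad5 1792 and 1527 RPKM. The ratios of these 4 were 1.44, 1.43, 1.33 and 1.19. The complex I genes nad4 and nad6 were 1.17-fold and 1.19-fold higher in SC.

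The cytochrome b gene cytb, of complex III, had 2816 RPKM in SD and 4954 in SC and was 1.73-fold higher in SC (1.70 to 1.77). The ATP synthase genes atp6 and atp8 were 1.56-fold and 1.42-fold higher in SC. Of the cytochrome oxidase genes of complex IV, cox1 was 1.48-fold higher in SC, with 10296 and 15464 RPKM, cox2 1.18-fold, and cox3 had 2307 and 2332 RPKM, with an interval of 0.977 to 1.03. The mtDNA genes had 428 to 116931 reads after heat stress, so that their intervals are narrow. All but that of cox3 lay to a single side of no difference. In the controls all 13 ratios stood lower by 1.28 to 1.999 times, with cytb, cox1 and atp6 again the furthest toward SC and nad1, nad2 and nd4L again the furthest toward SD.

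**Figure D4:**
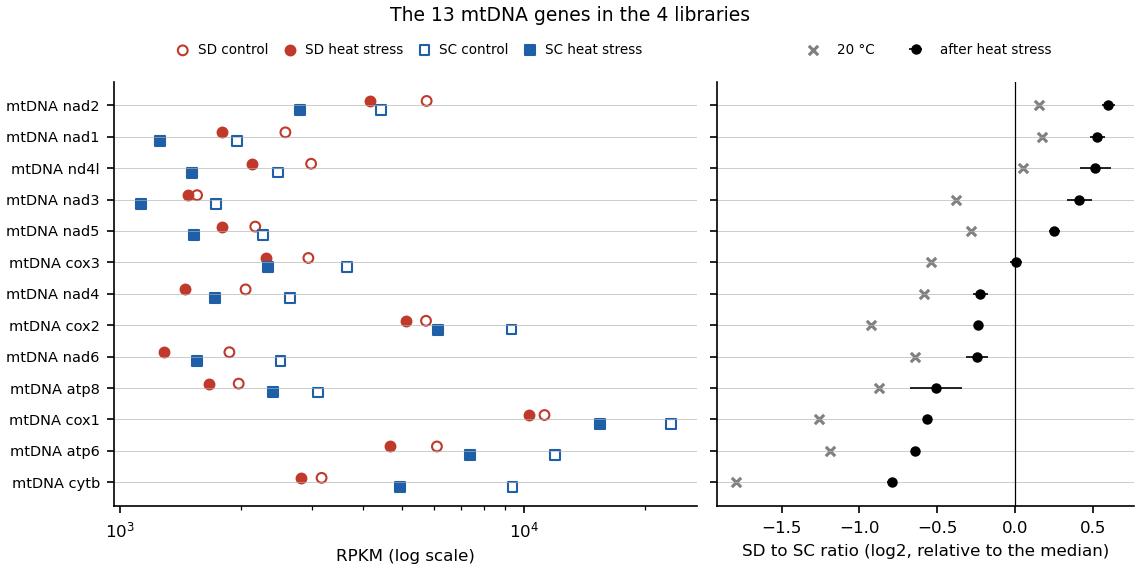
RPKM of the 13 mtDNA genes in the 4 libraries on a log scale (left) and their SD to SC ratio on the log2 scale relative to the median of all matched pairs (right, bars are exact 95% counting intervals). After heat stress nad2 is highest in SD and cytb highest in SC, and at 20 °C every gene lies further toward SC.

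The nuclear subunits of oxidative phosphorylation were higher in SC as a group, within 2-fold. Of 29 matched names, 27 had a ratio in favour of SC, with a median log2 ratio of -0.36 after heat stress and -1.40 in the controls. None was past 4-fold, against 2.48% of all pairs. The furthest were "atp synthase e chain", with 133 RPKM in SD and 319 in SC, 2.36-fold higher in SC (2.13 to 2.62), "cytochrome b-c1 complex subunit 8" (69.3 and 132 RPKM), "mitochondrial nadh dehydrogenase 1 beta subcomplex subunit 8" (44.9 and 83.5 RPKM) and an ATP synthase coupling factor (124 and 205 RPKM). The citric acid cycle and pyruvate oxidation enzymes had 12 of 14 names in favour of SC, with a median of -0.46. Beside the E2 subunit above, the 2-oxoglutarate dehydrogenase E2 was 1.88-fold, a pyruvate dehydrogenase E1 subunit 1.72-fold and "isocitrate dehydrogenase" 1.66-fold higher in SC.

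Glycolysis and sugar storage had the lowest median of the lists with 9 or more matched names, -0.82 on the log2 scale, and 8 of its 9 names were in favour of SC. "Phosphoglucose isomerase" had 81.8 RPKM in SD and 530 in SC, 6.38-fold higher in SC (5.90 to 6.90), "acid trehalase-like 1" 6.19 and 21.3 RPKM, "pyruvate kinase" 170 and 368 RPKM and "phosphoglycerate kinase" 108 and 194 RPKM. The corresponding differences in the controls, 10.1-fold, 5.97-fold, 2.68-fold and 2.33-fold, were also in favour of SC. The 26 names of fatty acid metabolism had a median of -0.08, with 2 names past 4-fold in SD, against 1.49% of all pairs. These were a delta-6 fatty acid name (58.4 and 8.92 RPKM, 6.65-fold) and "carnitine o-acyltransferase" (11.4 and 2.45 RPKM, 4.72-fold). "Enoyl- mitochondrial precursor" and "monoacylglycerol lipase abhd12" were 3.47-fold and 2.35-fold higher in SC.

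The lists of protein synthesis lay near the median of all pairs or toward SC. The 40 cytosolic ribosomal proteins had a median log2 ratio of -0.12 after heat stress and -0.93 in the controls, with 29 names in favour of SC. None was past 4-fold, against 2.48% of all pairs. "Large subunit ribosomal protein 29" was 3.18-fold higher in SC, at 130 and 420 RPKM, "40s ribosomal protein s12" 2.08-fold, "60s acidic ribosomal protein p0" 2.01-fold and "60s ribosomal protein l37a" 1.88-fold. The 22 mitochondrial ribosomal proteins had a median of -0.12 and ranged from -3.23 for the l49 name to 3.99 for l50, and "mitochondrial ribosomal protein l46" and a 28S protein were 1.90-fold and 2.16-fold higher in SD. The 44 translation factors had a median of -0.04. The 4 names furthest from the median by their interval, all higher in SC, were the initiation factors eif-2b subunit beta (2.08-fold), 3 subunit g (1.75-fold) and 6 (1.63-fold) and "elongation factor tu" (1.64-fold).

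The 25 proteasome names had a median of -0.43 and 17 were in favour of SC. "Proteasome subunit beta type-", of the catalytic core, had 15.4 and 42.3 RPKM and was 2.71-fold higher in SC (2.26 to 3.27), a 26S non-ATPase subunit (12) 2.51-fold, "proteasome ( macropain) 26s 5" 1.94-fold and "proteasome subunit beta type-6" 1.93-fold. The 63 names of the ubiquitin system had a median of -0.03, and 61 were within 2-fold. Past 4-fold was the polyubiquitin alone, in SC, against 0.993% of all pairs. The name "e3 ubiquitin-protein ligase sinat3" was 3.53-fold higher in SC on 14 SD reads, while "e3 ubiquitin-protein ligase march5" and "ubiquitin-conjugating enzyme" were 1.94-fold and 1.65-fold higher in SD. Summed over all 145 SD contigs and 159 SC contigs with ubiquitin names, SD had 11134 RPKM and SC 8634 after heat stress. In the controls these sums were 8301 and 7863 RPKM. The 23 proteases and peptidases had a median of 0.31, with "thymus-specific serine protease" (23.9 and 6.78 RPKM) and the digestive "trypsin-1 precursor" (37.9 and 15.2 RPKM) higher in SD by 3.59-fold and 2.53-fold. The 10 protease inhibitors had a median of -0.51. "Alpha-2-macroglobulin-like protein 1" was 3.15-fold, "protease inhibitor 1" 2.74-fold, on 8 SD reads, and "serine protease inhibitor serpin-4" 1.82-fold higher in SC, and "serpin b6-like" 1.68-fold higher in SD.

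**Figure D5:**
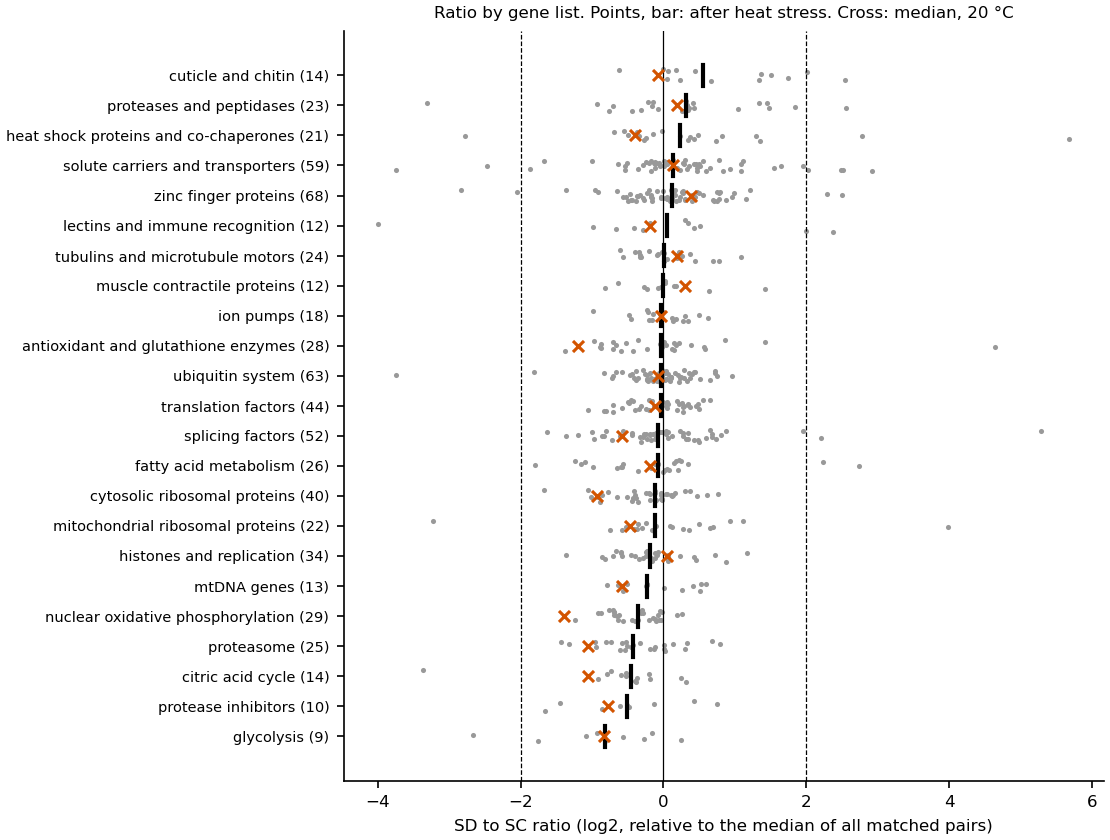
SD to SC ratio on the log2 scale, relative to the median of all matched pairs, for each list of function with at least 9 matched names (number in brackets). Grey points are names after heat stress, black bars their median and orange crosses the median in the controls: the highest median is that of cuticle and chitin, 0.55, and the lowest that of glycolysis, -0.82.

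The cuticle and chitin list, which holds the proteins of the exoskeleton and the enzymes that build and digest chitin, had the highest median of the lists of function, 0.55 after heat stress and -0.08 in the controls. Of its 14 matched names, out of 113 SD contigs and 108 SC contigs, 12 were in favour of SD. In SD 2 were past 4-fold, against 1.49% of all pairs. "Cuticular protein 72ea" had 86.3 RPKM in SD and 21.7 in SC, 4.05-fold higher in SD (2.30 to 7.88), from 12 SC reads. "Cuticular protein analogous to peritrophins 3-d1" had 40.7 and 12.4 RPKM, 3.34-fold higher, and "chitinase 3 precursor", which breaks down chitin, 144 and 51.6 RPKM, 2.84-fold higher. These 3 were also higher in SD in the controls, by 2.61-fold, 3.13-fold and 4.08-fold. The 9 matched names with moult marker words, all of them also in the cuticle and chitin list, were in favour of SD after heat stress, with a median of 1.37. In the controls 6 of the 9 were in favour of SD, with a median of 0.86.

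Words that mark sex, stage, gut or other organisms in the pools were summed over all contigs of such names in each heat stress library. Moult words (92 SD contigs and 81 SC contigs) had 6354 RPKM in SD and 3371 in SC. Yolk words (23 and 14 contigs), which mark egg-bearing females and had no matched name, had 10996 and 8672 RPKM, and male germ line words (32 and 26 contigs) 1879 and 838 RPKM. Gut words (42 and 41 contigs) were close, at 3370 and 3181 RPKM, and words of bacteria and algae (55 in each) 2192 and 13879 RPKM. In the controls the SD and SC sums were 4461 and 5586 RPKM for moult words, in favour of SC, and 12075 and 3263 RPKM for yolk words. They were 1407 and 513 RPKM for male germ line words, 3447 and 3266 for gut words and 3984 and 7994 for words of bacteria and algae. Such sums also move with the number of contigs of a name. Among matched names the median was 0.13 for 10 male germ line names, where "bromodomain testis-specific" was 3.79-fold higher in SD and "spermatogenesis associated 11-like" 4.85-fold higher in SC. It was 0.34 for 7 gut names and 0.16 for the 2 names caught by words of bacteria and algae. These were "chlorophyllase 1" and "ribulose-phosphate 3-epimerase", and the latter need not come from another organism. The part of the make-up of the pools in the differences above was not tested.

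Muscle contractile proteins lay at the median of all pairs, -0.01 over 12 names, with "standard paramyosin" (204 and 367 RPKM) 1.77-fold and "allergen tropomyosin" 1.21-fold higher in SC and "myosin xv" 2.69-fold higher in SD on 14 and 20 reads. The interval of "calponin smooth muscle-like isoform 2" was 0.957 to 1.35. Tubulins and microtubule motors (24 names) had a median of 0.01 and ion pumps (18 names) of -0.03, and both medians changed sign under other scalings. Among their furthest names by the interval, "tubulin-specific chaperone d" was 1.36-fold and "kinesin-like protein kif19" 1.72-fold higher in SD, and "gamma tubulin ring protein" 1.52-fold and "kinesin family member 18a-like" 1.48-fold higher in SC. Of the ion pump names, "plasma membrane calcium-transporting atpase 2" was 1.37-fold higher in SC, and a sodium potassium chloride transporter, a sodium potassium ATPase beta subunit and "vacuolar atp synthase subunit h" 1.41-fold, 1.54-fold and 1.27-fold higher in SD.

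Membrane transporters other than these pumps were more spread. Of 59 matched names of solute carriers and transporters, 4 were past 4-fold in SD and 2 in SC, with a median of 0.13. Over all pairs the shares past 4-fold were 1.49% in SD and 0.993% in SC. "Bumetanide-sensitive na-k-cl cotransport protein", which takes up sodium, potassium and chloride together, had 33.5 and 4.49 RPKM, 7.57-fold higher in SD (5.25 to 11.2), and "sugar transporter 12" 60.6 and 10.9 RPKM, 5.63-fold higher in SD (4.13 to 7.83). In the controls these ratios were 15.6-fold and 4.11-fold in favour of SD. Of 68 zinc finger names, 2 were past 4-fold in each direction with a median of 0.12. "Zinc finger protein c3h type-like 1a" had 705 RPKM in SD and 146 in SC, 4.89-fold higher in SD, another zinc finger name was 5.66-fold higher in SD, and "zinc finger ccch domain-containing protein 18" and "zinc finger swim domain-containing protein 5" were 4.13-fold and 7.11-fold higher in SC.

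The antioxidant and glutathione list, 28 names, had a median of -0.03 after heat stress and -1.19 in the controls. Only glrx3 was past 4-fold, in SD, against 1.49% of all pairs. "Glutathione s-transferase 1", which conjugates toxic compounds, had 33.9 and 12.8 RPKM and was 2.69-fold higher in SD, and "hydroxyacylglutathione hydrolase" and "glutathione reductase" were 2.61-fold and 1.96-fold higher in SC. The single matched ferritin name, of 7 SD contigs and 10 SC contigs, had 43.5 and 57.3 RPKM, 1.295-fold higher in SC (1.07 to 1.57). The 4 matched cytochrome P450 names were within 2-fold of the median, among them the ecdysone synthesis gene "cytochrome p450 307a1", at 90.4 and 107 RPKM. The ratios of "cytochrome p450 18a1" and the cyp15a1-like name in favour of SC were 1.91 and 1.11, and the cyp49a1-like name had 25.96 and 25.8 RPKM.

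Of 12 names of lectins and immune recognition, 1 was past 4-fold in each direction, with a median of 0.05. Over all pairs 1.49% were past 4-fold in SD and 0.993% in SC. The names were hydramacin-1 in SC and "sptzle 3a", a ligand of Toll receptors, in SD. The latter had 74.3 and 14.6 RPKM and was 5.17-fold higher in SD (4.12 to 6.57). "Peptidoglycan-binding domain 1 protein" was 1.98-fold higher in SC. The ultraviolet opsin name had 256 RPKM in SD and 941 in SC, 3.62-fold higher in SC (3.37 to 3.89), and "protein retinal degeneration b" was 2.39-fold higher in SD. The 2 matched names of yolk and lipid transport, "apolipoprotein d-like" and "prolow-density lipoprotein receptor-related protein 1", were 1.499-fold and 1.19-fold in favour of SC. The interval of the former, 0.814 to 3.02, included no difference.

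The list found by words of splicing factors (52 names) had a median of -0.08, with 2 names past 4-fold in SD, against 1.49% of all pairs. These were lsm14, given above as a protein of P-bodies, and "spliceosome associated", which rested on 12 SD reads and 3 SC reads. "U6 snrna-associated sm-like protein" was 3.89-fold higher in SD, with 75.8 and 19.8 RPKM, and the lsm1 name and "u4 tri-snrnp-associated" were 2.58-fold and 2.28-fold higher in SC. The 34 names of histones and replication had a median of -0.19 and 23 were in favour of SC. "Protein mcm10 homolog" and "minichromosome maintenance complex component 8 isoform 1", which act in opening DNA for replication, were 2.59-fold and 1.77-fold higher in SC, and "dna polymerase epsilon subunit 3" and "dna replication helicase 2 homolog" 2.25-fold and 1.64-fold higher in SD.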

How the data were processed

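The authors built separate transcriptomes for SD and SC, aligned single-end reads to the matching one in CLC Genomics Workbench, counting unique alignments, and annotated contigs from BLAST matches. The deposited values are RPKM. No genome or sequence table was used, so no sequences or coordinates are given. Files were read and names matched with Python 3.11.15, NumPy 2.4.6 and pandas 2.3.3, and exact Clopper-Pearson and conditional intervals at 95% were computed with SciPy 1.17.1, and figures were drawn with Matplotlib 3.10.9. Reads were recovered by a search over contig lengths from 36 to 10000 bp, which is why lengths and reads are minima. The library totals behind the RPKM values were 5583127 (SD) and 4948622 (SC) after heat stress and 1947202 and 3256758 in the controls. Calls and intervals were tested on simulated libraries. These kept the pairs as matched by name, so whether a pair is the same gene was not tested.

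The members and the word lists were chosen with earlier results of these data known. Named are the 12 informative names highest in each population and the 6 with the largest moves of the ratio each way, by the end of the interval nearest to no difference, all heat shock and mtDNA names, and up to 4 names per other list, ranked likewise. Names outside this rule are said to have been chosen later. Alternatives were other folds, a pseudocount of 1 RPKM, minimum RPKM or reads, no or trimmed scaling, calls on the interval, summed contigs, similar contig lengths and bracketed names.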

Additional observations from a re-analysis of the deposited data

Results flagged for a closer look

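In these names the level after heat stress was at least 2-fold above the control in SD and at least 2-fold below it in SC. "Hsp70 hsp90 organizing protein homolog" had 3.17 times its control RPKM in SD and 0.4996 times in SC. In the paper the orthologous organizing protein rose in SD by a similar factor. Its SC value there was not significant and lay much nearer to no change than the SC value here. Whether the contigs matched here by name are that pair was not tested. "Cuticular protein rr-1 family (agap009876-pa)" had 25.5 times its control RPKM in SD and 0.421 times in SC. The SD value rested on 3 control reads, with a counting interval of 8.60 to 124. The difference was not tested, since each value comes from a single library. The SD to SC ratio of the organizing protein moved 7.50-fold by its counting interval of 6.41 to 8.79, and that of the cuticular protein 71.6-fold (18.2 to 391).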

How the results depend on the processing

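The counts in favour of SD and SC after heat stress, 60 and 40, depended on the fold limit and on which names entered. With the contigs of a name summed (5809 names) they were 156 and 122. With recovered contig lengths that differed by less than 1.5 times (2291 names) they were 23 and 17. At 2-fold they were 243 and 195, at 8-fold 16 and 14, and 105 and 73 when the whole interval had to lie past 2-fold. The count of moved ratios, 112, was 1015 at 2-fold, 23 at 8-fold, 55 with 1 RPKM added, 29 with at least 10 reads in all 4 libraries, 181 with contigs summed and 47 with similar lengths. The median ratio stayed inside its own 95% interval under the alternatives run. The named ratios were rerun only with 1 RPKM added, with other scalings and with contigs summed, and 773 of 785 values lay inside the counting interval. None of those past 4-fold changed direction, but these settings could not reverse such a ratio. Summing leaves the values of a name on 1 contig as they are. Medians of lists changed sign in 11 of 279 alternatives, for the heat shock list with similar lengths and otherwise for lists near 0 or with few names. No paired analysis was possible because each group has 1 library and the labels carry no replicate numbers.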

Other observations

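Further names of related function were found among those past 4-fold in SC, and were picked out after their values were seen. Of 3 matched carbonic anhydrase names, enzymes that hydrate carbon dioxide, 2 were past 4-fold in SC. The carbonic anhydrase 2 name had 7.26 RPKM in SD and 43.9 in SC, 5.96-fold higher in SC (4.23 to 8.58), and the carbonic anhydrase ix name 24.8 and 145 RPKM, 5.77-fold higher (4.52 to 7.47). Of 3 alcohol dehydrogenase names 2 were past 4-fold in SC, and the lowest log2 ratio of the 3 was -3.52. Over all matched pairs 0.993% were past 4-fold in SC, and with 3 names each these counts are a description.

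"Bromodomain testis-specific" had 152 RPKM in SD and 40.7 in SC after heat stress and 41.9 and 13.2 RPKM in the controls, so that it stood 3.62 times above its control in SD and 3.08 times in SC.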
